A study of Rattus norvegicus with 20 samples.

Results

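Circadian clock genes were followed in dorsal root ganglia (DRG), the sensory ganglia beside the spinal cord, of rats with and without a nerve injury and on 2 diets. They were 10 rows of the 39747 genes in the count table, taken by symbol: Arntl, Clock, Per1, Per2, Per3, Cry1, Nr1d1, Nr1d2, Dbp, and Tef. All 10 passed the filter on low counts in each of the 3 fits. The 20 libraries came from 14 female Sprague-Dawley rats, described as wild type, housed under alternating light and dark periods of 12 hours. The rats ate a soy oil diet based on AIN-93G (SOD) or a fish oil diet rich in omega-3 fatty acids (FOD), begun 4 weeks before surgery. In chronic constriction injury (CCI), the sciatic nerve of the left leg was loosely tied with chromic gut ligatures, and sham controls (CT) had it exposed without ties. The left DRG formed SOD-CT (n = 4), SOD-CCI (n = 3), FOD-CT (n = 3), and FOD-CCI (n = 4), and the right, uninjured DRG of injured rats formed SOD-CCI-contra (n = 3) and FOD-CCI-contra (n = 3). The paper places collection 1 week after surgery, whereas both the paper and the deposited study description continue the diets for 4 more weeks. The time of day at which each ganglion was taken is not given in the sources used here.

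The circadian clock is a loop of transcription found in nearly every cell. Arntl (also Bmal1) and Clock form the activator that binds E-box sequences and switches on the Per and Cry genes, whose proteins then repress it. A second loop runs through Nr1d1 and Nr1d2 (Rev-erb alpha and beta), repressors of Arntl that act at ROR elements, and the activator also drives Dbp and Tef, factors that bind D-box sequences. In tissue sampled around the clock, Arntl peaks roughly opposite to Dbp and Nr1d1, so their relative levels are commonly read as clock phase.

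The sequence elements that tie these genes into loops were searched in the 250 bases before each start site in the RefSeq promoter table (build GRCr8), on both strands. The letters searched were CACGTG (E-box) and its variant CACGTT, TTATGTAA and TTACGTAA (D-box), and TAGGTCA and TGGGTCA (ROR element). The table held 9 of the 10 genes with 11 start sites, and 5 of these windows had a match. They are shown 5′ to 3′ along the gene, with each match in capitals, because such letters belong to the elements described above. Binding at these matches was not measured, so a match alone does not place a gene in a loop.
Tef, chr7:115206577-115206826, plus strand: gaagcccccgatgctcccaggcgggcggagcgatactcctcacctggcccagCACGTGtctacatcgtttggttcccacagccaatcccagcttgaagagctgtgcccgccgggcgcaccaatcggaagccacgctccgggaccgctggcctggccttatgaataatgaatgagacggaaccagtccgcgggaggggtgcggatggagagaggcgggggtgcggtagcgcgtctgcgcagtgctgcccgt
Nr1d1, first start site, chr10:84231813-84232062, minus strand: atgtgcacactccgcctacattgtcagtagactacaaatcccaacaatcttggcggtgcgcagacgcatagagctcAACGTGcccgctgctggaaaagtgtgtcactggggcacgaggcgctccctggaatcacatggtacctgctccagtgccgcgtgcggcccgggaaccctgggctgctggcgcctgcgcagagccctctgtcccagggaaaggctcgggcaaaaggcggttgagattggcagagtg
Nr1d1, second start site, chr10:84229455-84229704, minus strand: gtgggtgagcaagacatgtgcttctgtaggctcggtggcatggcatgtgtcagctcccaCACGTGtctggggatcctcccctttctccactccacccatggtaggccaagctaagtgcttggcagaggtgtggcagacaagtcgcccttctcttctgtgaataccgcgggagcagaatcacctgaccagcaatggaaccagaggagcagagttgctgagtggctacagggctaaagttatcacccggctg
Per2, chr9:99496994-99497243, minus strand: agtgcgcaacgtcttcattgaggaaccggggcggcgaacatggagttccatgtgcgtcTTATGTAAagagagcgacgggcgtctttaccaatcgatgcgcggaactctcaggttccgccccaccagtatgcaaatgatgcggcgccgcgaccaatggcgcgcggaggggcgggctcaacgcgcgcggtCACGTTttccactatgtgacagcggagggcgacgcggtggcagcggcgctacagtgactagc
Arntl (Bmal1 in RefSeq), chr1:176766078-176766327, plus strand: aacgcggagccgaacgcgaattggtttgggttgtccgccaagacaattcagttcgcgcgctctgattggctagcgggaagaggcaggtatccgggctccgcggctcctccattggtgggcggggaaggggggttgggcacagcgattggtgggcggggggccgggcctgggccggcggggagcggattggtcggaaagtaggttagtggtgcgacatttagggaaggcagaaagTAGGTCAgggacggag

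Tef carried CACGTG 198 bases before its start. Nr1d1 carried CACGTT, read on the opposite strand, 174 bases before its first start and CACGTG 191 bases before its second. Per2 carried both CACGTT, at 62 bases, and the D-box TTATGTAA, at 192 bases. Arntl carried the ROR element TAGGTCA 16 bases before its start. The E-box and ROR letters are not rare, while the D-box letters are less frequent. Among 33469 promoter windows of the same length, CACGTG was present in 5.59%, CACGTT in 4.07%, TAGGTCA in 2.26%, and TGGGTCA in 3.44%. TTATGTAA was present in 0.828% and TTACGTAA in 0.108%. The windows of Dbp, Per1, Per3, Clock, and Nr1d2 held none of them.

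Library totals ran from 22547190 to 54437581 counts. Several libraries stood apart from their labels in tissue makeup. In the library labelled FOD-CCI-contra replicate 1, 10 genes of DRG neurons summed to 1084 CPM (counts per gene scaled to the library total), against 3877 to 17103 CPM in the other 19 libraries. There the sensory neuron sodium channel gene Scn10a and the neuronal factor gene Isl1 had 0 counts. A list of 8 spinal cord genes (such as the myelin gene Mobp and the astrocyte water channel gene Aqp4) summed to 2675 to 4097 CPM in replicate 1 of FOD-CT, FOD-CCI, and FOD-CCI-contra, with all 8 detected in each, and to 6.72 to 65.7 CPM in the other 17 libraries. In SOD-CT replicate 1, 10 skeletal muscle genes summed to 101396 CPM. FOD-CT replicate 2 (23936 CPM), FOD-CCI-contra replicate 3 (8336 CPM), SOD-CT replicate 4 (5343 CPM), and SOD-CCI-contra replicate 2 (2146 CPM) also held muscle transcripts. FOD-CCI replicate 2 held 6489 CPM of 7 red cell genes and SOD-CT replicate 4 held 2331 CPM. These libraries were not among those set aside. Below, results are given with all libraries and without the 4 replicate 1 libraries named here, called the libraries with other tissue. In bulk RNA, fewer cells of a type and less RNA per cell cannot be told apart.

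Some of the clock genes moved with this makeup. The summed level of the 10 was 472 to 741 CPM in the 3 libraries with spinal cord transcripts and 227 to 327 CPM in the other 17. That of 19 further clock genes, found of 20 listed, overlapped (621 to 670 CPM against 475 to 672 CPM). Dbp, Tef, Nr1d1, Nr1d2, and Per2, 5 of the 10, were higher in all 3 of these libraries than in any other. Per3, Clock, and Cry1 were so in 2 of the 3, Arntl in 1, and Per1 in 0. A list of 5 genes taken as satellite glia markers was also higher there (1528 to 2007 CPM against 597 to 853 CPM). Its sum was highest in FOD-CCI-contra replicate 1, the library with the lowest sum of DRG neuron genes. Which cells, of ganglion or spinal cord, carried these 5 genes was not tested. Dbp showed the widest gap: 128.8 CPM in FOD-CCI-contra replicate 1, 88.3 CPM in FOD-CT replicate 1, and 79.0 CPM in FOD-CCI replicate 1, against 8.75 to 27.1 CPM in the others. Tef, its relative in the same factor family, was at 204.2, 203.9, and 142.2 CPM in those libraries and at 67.7 to 97.8 CPM in the others. Arntl was at 35.9, 21.8, and 15.2 CPM in those libraries and at 14.8 to 30.5 CPM in the others. The 3 libraries with spinal cord transcripts are both sides of rat 43 and the left DRG of rat 44. All are FOD libraries with replicate number 1, so tissue makeup cannot be told apart from these rats there. The part of spinal cord tissue in any one value was not tested.

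**Figure D1:**
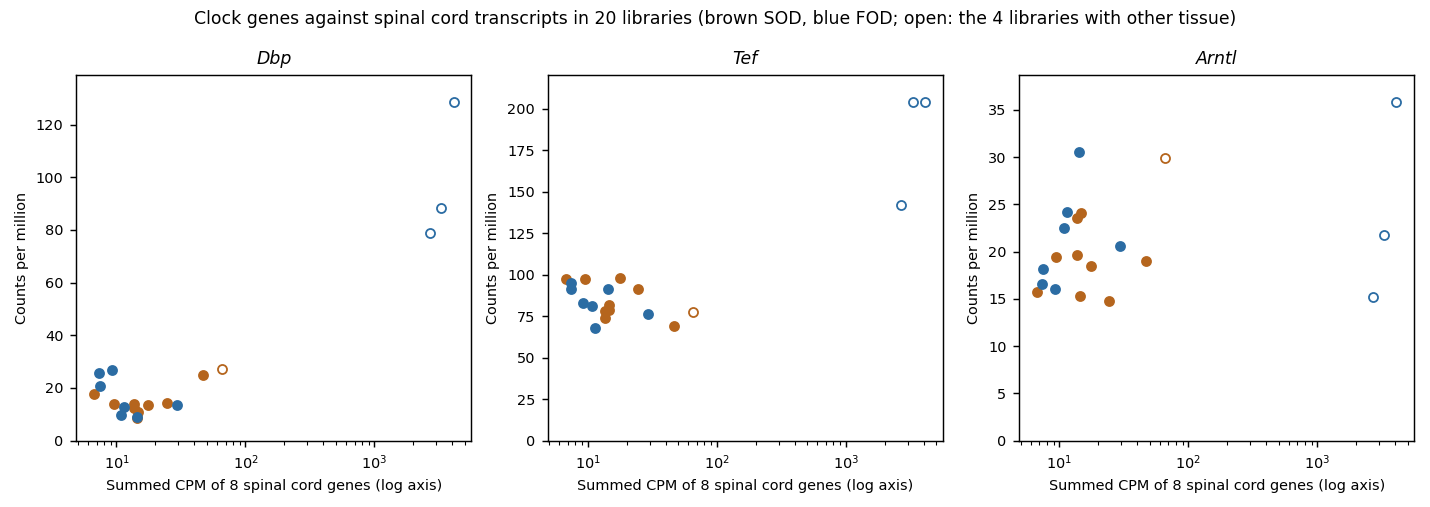
CPM of Dbp, Tef, and Arntl (vertical axes, linear from 0) against the summed CPM of 8 spinal cord genes (log axis) in 20 libraries. Dbp and Tef were higher in the 3 libraries at the right (rats 43 and 44), which lay between 2675 and 4097 CPM on the horizontal axis. Arntl exceeded the others in 1 of these 3.

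Levels were compared between genes per length, in FPKM. Tef had the highest median over 20 libraries at 21.2 FPKM, followed by Nr1d2 (12.7), Dbp (8.57), Arntl (6.47), Clock (5.42), Nr1d1 (4.84), Per1 (3.78), Cry1 (3.02), Per3 (0.843), and Per2 (0.417 FPKM). The order was clear in only some places. Tef was above Nr1d2, and Cry1 above Per3, in all 20 libraries, and Per3 exceeded Per2 in 18. Nr1d2 exceeded Dbp in 13 libraries, Clock exceeded Nr1d1 in 11, and Per1 exceeded Cry1 in 11, so these neighbours overlapped. Per2 and Per3 were also the least precise, with as few as 8 counts (Per2, SOD-CT replicate 1) and 16 counts (Per3, FOD-CT replicate 2) in a library.

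The genes also differed in how far they ranged. The ratio of the highest to the lowest CPM over 20 libraries was 41.5 for Per2, 27.4 for Per3, 14.7 for Dbp, 9.78 for Nr1d1, and only 2.29 for Clock. Among the 16 libraries left without those with other tissue, the ratios were 7.22, 12.8, 3.06, 5.89, and 1.83. Tef then varied least of all 10, from 67.7 to 97.8 CPM (ratio 1.45), and Nr1d1 still ran from 5.34 CPM in SOD-CT replicate 4 to 31.5 CPM in FOD-CCI-contra replicate 2.

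**Figure D2:**
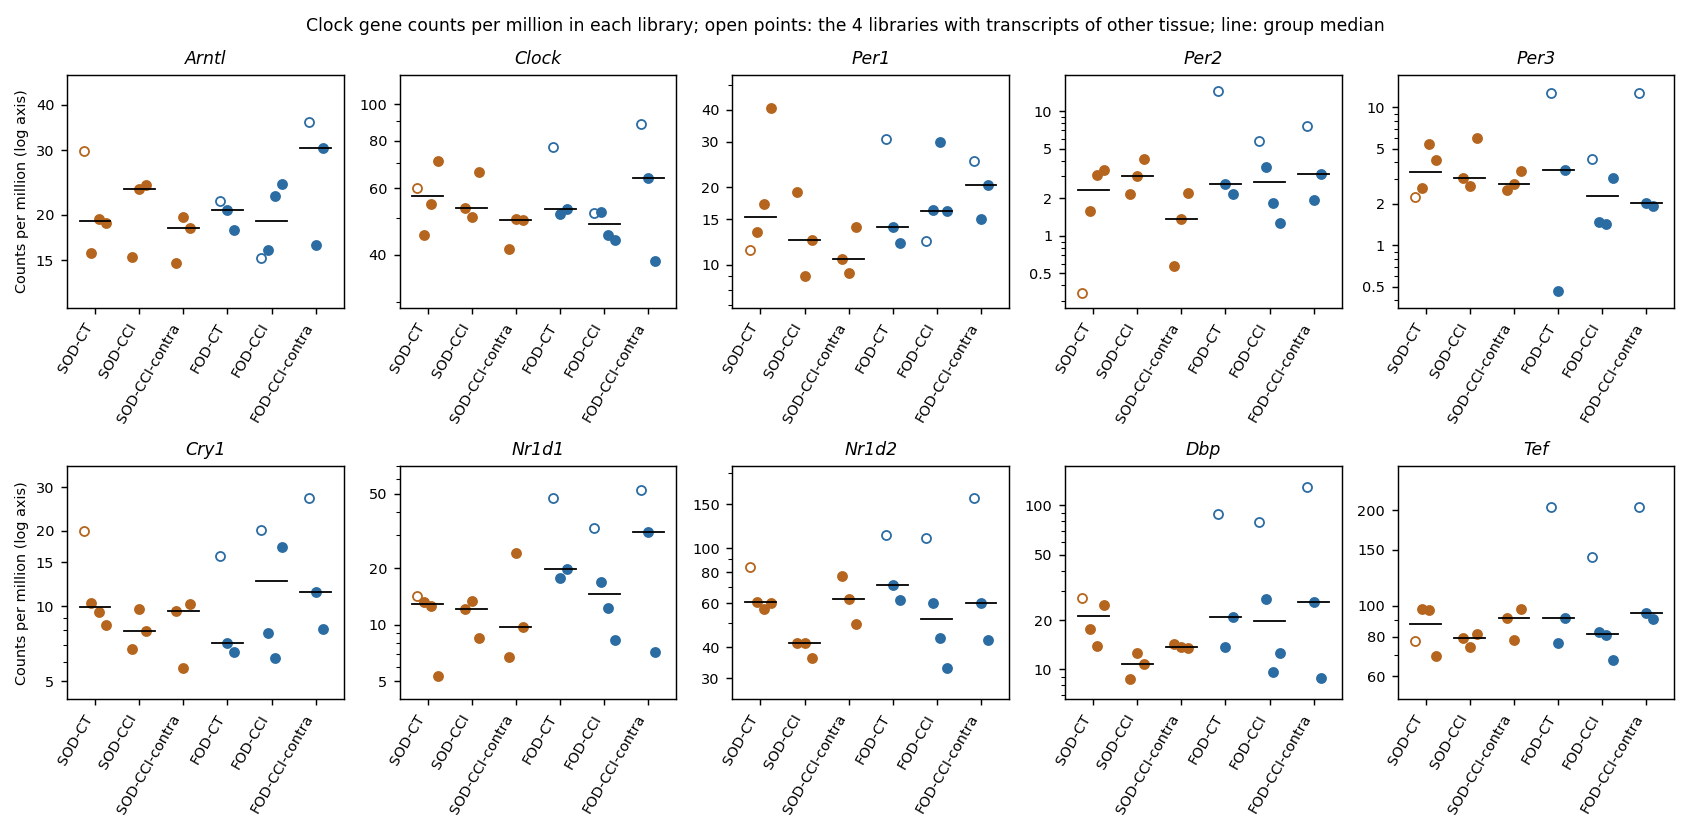
CPM (log axis) of the 10 clock genes in each library, by group, with a line at the group median and open points for the 4 libraries with other tissue. In SOD-CCI the 3 points for Nr1d2 lie between 36.1 and 41.6 CPM, below all 4 SOD-CT points, while for most other genes the groups overlap.

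Whether injury changed the clock genes on the soy oil diet was addressed by SOD-CCI against SOD-CT. Nr1d2, a repressor of Arntl, was at 41.5, 41.6, and 36.1 CPM in SOD-CCI and at 83.9, 60.8, 57.0, and 60.1 CPM in SOD-CT. Every injured library was lower than every sham library, with a log2 fold change of -0.99 (SE 0.40; adjusted p = 0.324; edgeR quasi-likelihood test), which did not pass the threshold. Dbp was at 8.75, 12.5, and 10.8 CPM in SOD-CCI and at 27.1, 17.6, 13.99, and 24.7 CPM in SOD-CT, again without overlap (log2 fold change -1.25, SE 0.73, adjusted p = 0.454). The other 8 genes overlapped between the groups. None of the 10 was called, where 0% of 14484 genes tested were called. Of all genes, 13.8% had an unadjusted p under 0.05, as did 1 of the 10, and 17.5% did not overlap, as did 2 of the 10.

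Without the libraries with other tissue, Nr1d2 differed by -0.61 (adjusted p = 0.277) and Dbp by -0.87 (adjusted p = 0.382) between SOD-CCI and SOD-CT on the log2 scale. Direction was thus shared, and neither was called, where 1.32% of genes were. Over the 10 genes the median log2 fold change was -0.31 with all libraries (9 lower, 1 higher) and -0.14 without those 4 (7 lower, 3 higher), against -0.01 and -0.02 over all genes.

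The same question was addressed within rats by the left against the right DRG. Nr1d2 in SOD rats was at 41.5 CPM on the injured and 77.3 CPM on the uninjured side of rat 45, at 41.6 and 62.6 CPM in rat 49, and at 36.1 and 49.4 CPM in rat 53. The injured side was lower in 3 of 3 rats, by 0.95, 0.67, and 0.47 on the log2 scale. The fitted log2 fold change was -0.70 (SE 0.19), with the lowest p among the 10 genes and an adjusted p of 0.313, against 0.131% of genes called. It was the only one of the 10 with an unadjusted p under 0.05, against 8.48% of all genes. It passed the threshold with DESeq2 (adjusted p = 0.080, where 3.31% of genes were called) and without rat 43, a FOD rat whose libraries hold spinal cord transcripts (adjusted p = 0.090, where 3.14% of genes were called). Across all alternatives its log2 fold change lay between -0.83 and -0.57, and its adjusted p between 0.080 and 0.9998. Beside it, 5 macrophage genes summed to 89.3, 146.7, and 106.9 CPM on the injured and 14.2, 33.3, and 43.9 CPM on the uninjured side of these rats, whose part in the Nr1d2 value was not tested, while the sums of DRG neuron and satellite glia genes overlapped between the sides. The SOD-CCI libraries enter both this comparison and the one with sham rats, so the values are not independent.

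In FOD rats the sides lay close for Nr1d2 in 2 of 3 animals. It was at 109.4 CPM (left) and 158.5 CPM (the library labelled right) in rat 43, at 60.1 and 60.2 CPM in rat 47, and at 43.6 and 42.8 CPM in rat 51. The log2 fold change of left against right was -0.16 (SE 0.19, adjusted p = 0.889) and 0.01 without rat 43. The difference between diets in this side effect, a test added after the values were seen, was 0.54 (SE 0.27; adjusted p = 0.997) and 0.71 without rat 43 (adjusted p = 0.999), so it was not called (0% of genes were). With all libraries none of the 10 had an unadjusted p under 0.05 in this test, against 2.91% of genes, and without rat 43 Nr1d2 did, against 3.32%. The interaction of diet and injury over left DRG was 0.63 for Nr1d2 (SE 0.56, adjusted p = 0.894), and none of the 10 had an unadjusted p under 0.05, against 5.01% of genes (0% called).

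Among the other clock genes, Per2, a repressor of the activator, had the next lowest p in the SOD pairs. It was at 2.17, 3.00, and 4.14 CPM on the injured side and at 0.574, 1.38, and 2.22 CPM on the uninjured side of rats 45, 49, and 53. It was higher on the injured side in 3 of 3 rats (log2 fold change 1.24, SE 0.61, adjusted p = 0.637), on 60 against 16 counts in rat 45. Dbp and Tef were lower on the injured side in 3 of 3 SOD rats, with log2 fold changes of -0.43 (SE 0.23) and -0.24 (SE 0.17) and adjusted p of 0.678 and 0.794. In CPM, 6 of the 10 moved one way in all 3 SOD rats (these 4 and, upward, Clock and Arntl, each with 1 rat nearly level), as did 41% of all genes. In FOD rats all 10 fitted fold changes were below 0 (median -0.27, adjusted p from 0.730 to 0.981, where 0.0137% of genes were called and 6.96% had an unadjusted p under 0.05), 4 genes were lower in 3 of 3 rats (23.2% of all genes moved one way in all 3), and without rat 43 there were 6 below and 4 above 0 (median -0.06).

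**Figure D3:**
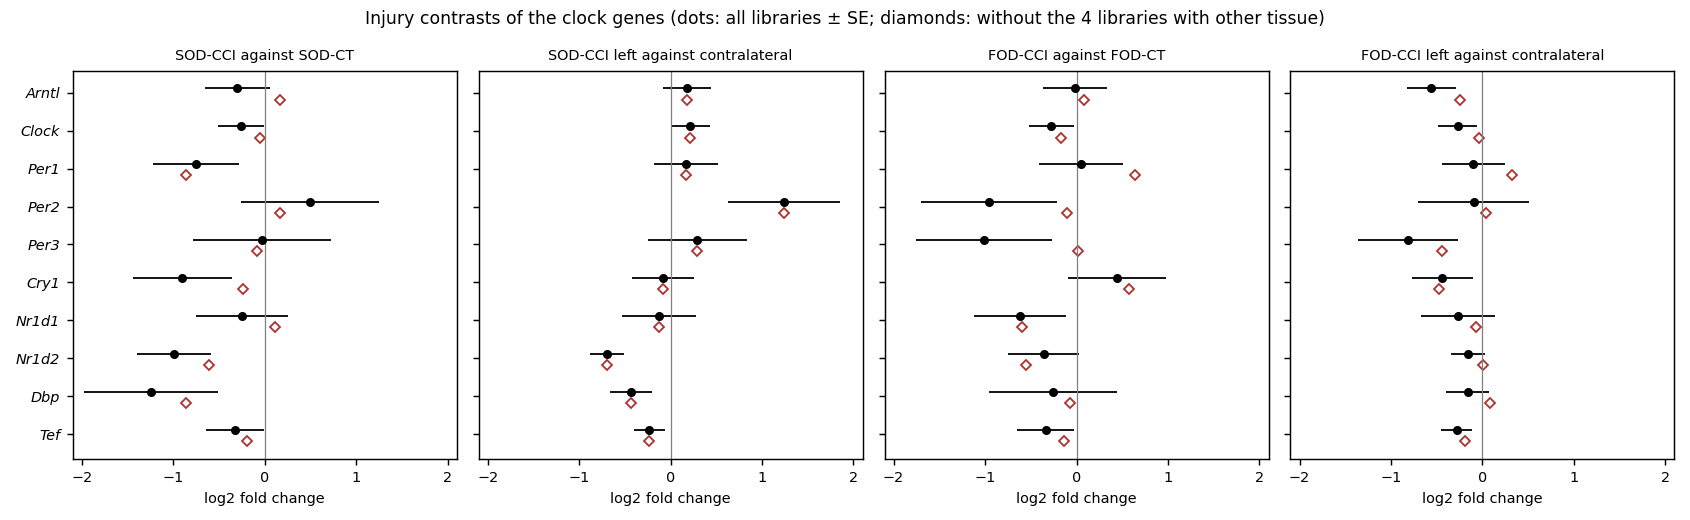
Log2 fold changes of the 10 clock genes in 4 injury contrasts (horizontal axes), as dots with SE bars for all libraries and diamonds without the 4 libraries with other tissue. Nr1d2 lies at -0.99 and -0.70 in the SOD contrasts and at -0.36 and -0.16 in the FOD contrasts.

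Injury on the fish oil diet was addressed by FOD-CCI against FOD-CT. The 10 genes overlapped between groups, and none was called or had an unadjusted p under 0.05 (0% and 4.52% of genes, while 4.59% of genes did not overlap), with adjusted p of 0.9997 for all 10. The lowest p belonged to Per3 (log2 fold change -1.01, SE 0.75) and Per2 (-0.95, SE 0.74). Both rested on FOD-CT replicate 1, where Per3 was at 12.7 CPM and Per2 at 14.5 CPM. Without that library they turned to 0.40 and 0.36. Nr1d2 was at 109.4, 60.1, 43.6, and 32.8 CPM in FOD-CCI and at 112.8, 70.8, and 61.7 CPM in FOD-CT (-0.36, SE 0.39), and at -0.56 without the libraries with other tissue (adjusted p = 0.316), where 3.47% of genes and none of the 10 were called.

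The diets were compared in injured, sham, and contralateral DRG, and 0% of genes were called in each. Dbp had the lowest p of the 10 in injured DRG. It was at 79.0, 26.8, 9.68, and 12.6 CPM in FOD-CCI, overlapping the 8.75 to 12.5 CPM of SOD-CCI, with a log2 fold change of 1.65 (SE 0.74; adjusted p = 0.859) that became 0.70 without the libraries with other tissue. It was the only one of the 10 with an unadjusted p under 0.05, against 5.4% of genes. In contralateral DRG Dbp was at 128.8, 25.9, and 8.85 CPM in FOD-CCI-contra and at 14.2, 13.7, and 13.5 CPM in SOD-CCI-contra. The log2 fold change there was 1.97 (SE 0.84; adjusted p = 0.697) and 0.36 without those libraries, and again Dbp was the only one with an unadjusted p under 0.05 (7.1% of genes).

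In sham DRG Nr1d1, a repressor of Arntl, was higher with fish oil in every library. It was at 47.3, 17.8, and 19.8 CPM in FOD-CT and at 14.2, 13.3, 12.6, and 5.34 CPM in SOD-CT. The log2 fold change was 1.06 (SE 0.50; adjusted p = 0.965) and 0.93 without the libraries with other tissue (adjusted p = 1.000). Of all genes, 3.39% had an unadjusted p under 0.05, as did none of the 10, and 3.01% did not overlap, as did Nr1d1 alone. Leaving out 1 library, Nr1d1 ranged from 0.55 (without FOD-CT replicate 1) to 1.43 (without SOD-CT replicate 1). Per2 had a log2 fold change of 1.51 (SE 0.75, adjusted p = 0.965), which was 0.20 without FOD-CT replicate 1 alone and turned to -0.12 without the libraries with other tissue. Per1, in contralateral DRG, was at 25.2, 15.1, and 20.3 CPM in FOD-CCI-contra and at 10.5, 9.24, and 13.97 CPM in SOD-CCI-contra, also without overlap (0.87, SE 0.47, adjusted p = 0.703; 17.2% of genes did not overlap).

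Contralateral DRG were also set against sham DRG. Per1, an early-response member of the Per family, was at 10.5, 9.24, and 13.97 CPM in SOD-CCI-contra and at 11.4, 13.4, 17.2, and 40.5 CPM in SOD-CT, which overlapped. Its log2 fold change was -1.01 (SE 0.44; adjusted p = 0.700, 0% of genes called) and -1.10 without the libraries with other tissue. It was -0.47 with the replicate number as a block, and also -0.47 without SOD-CT replicate 4. That library, at 40.5 CPM, also held muscle and red cell transcripts, whose part was not tested. With all libraries Per1 was the only one of the 10 with an unadjusted p under 0.05 (7.06% of genes), and all 10 overlapped (7.37% of genes did not). In FOD-CCI-contra against FOD-CT, where 0% of genes were called, 1.71% had an unadjusted p under 0.05, and 8.82% did not overlap, none of the 10 did any of these, and the lowest p belonged to Arntl (0.48, SE 0.41) and Cry1 (0.69, SE 0.59), a repressor, each with an adjusted p of 1.000. Without FOD-CCI-contra replicate 1 they were at 0.28 and 0.062, without FOD-CCI-contra replicate 2 Arntl was at 0.74, and without FOD-CT replicate 1 Cry1 was at 1.13.

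Whether the libraries of one rat shared a clock state was addressed in the 6 rats with both sides sequenced, by testing for differences between rats of the same diet after the side was accounted for. Dbp differed between rats (adjusted p = 0.007) and so did Nr1d2 (adjusted p = 0.047), 2 of the 10 genes against 3.96% of 14549 genes. At an unadjusted p under 0.05 there were 6 of 10 (Dbp, Nr1d2, Tef, Nr1d1, Cry1, and Per3) against 15.9% of all genes. Rat 43, whose left and right libraries both hold spinal cord transcripts, carried much of this. Without it none of the 10 was called (0.0334% of genes were called), 2 of 10 had an unadjusted p under 0.05 (Dbp and Nr1d1) against 8.72% of genes, and the adjusted p of Dbp was 0.374. Without rat 51 only Dbp was called, 1 of 10 against 2.77% of genes.

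The sharing was also described without a test, by the intraclass correlation of log2 CPM (near 1 when rats differ and the sides of a rat do not, near 0 or below when sides differ as much as rats). With 6 rats it was 0.96 for Dbp, 0.95 for Tef, 0.90 for Nr1d2, 0.82 for Per3, 0.72 for Cry1, 0.59 for Per2, 0.57 for Nr1d1, 0.32 for Arntl, 0.26 for Clock, and 0.06 for Per1. The median of the 10 was 0.65 and that of all genes 0.27. Without rat 43 Dbp (0.93), Tef (0.85), Arntl (0.78), and Nr1d2 (0.78) were the highest, Cry1 fell to -0.30, and the medians were 0.49 and 0.18. Tef was high here on a very small spread, with an SD of 0.14 between rats and 0.04 between sides on the log2 scale. For Dbp, rats 47 and 51 differed by 1.51 on this scale on both sides. Those values enter both its correlation and the comparison of these rats below, so the 2 are not separate. Among SOD rats the order in Dbp differed between the sides for rats 45 and 49 and for rats 45 and 53.

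The log2 ratio of Dbp to Arntl was highest in rat 43, at 2.38 (left) and 1.84 (right). Of the rats without spinal cord transcripts, rats 47 and 51 lay farthest apart in this ratio within a diet. Dbp was at 26.8 CPM (left) and 25.9 CPM (right) in rat 47 and at 9.68 and 8.85 CPM in rat 51. Arntl, its counterpart in phase, was at 16.02 and 16.5 CPM in rat 47 and at 22.5 and 30.5 CPM in rat 51. Rat 47 was thus higher in Dbp and lower in Arntl on both sides. The log2 ratio of Dbp to Arntl was 0.74 and 0.65 in rat 47 and -1.22 and -1.79 in rat 51. Nr1d1 was likewise higher in rat 47, at 16.9 and 31.5 CPM, than in rat 51, at 12.3 and 7.15 CPM. All of the 10 genes except Per2 kept the same order of these rats on both sides, 9 of 10 against 49.9% of all genes. Some of these were near ties: rat 47 exceeded rat 51 on the log2 scale by 0.07 (left) and 0.02 (right) for Tef. For Per3 this was 0.09 and 0.02. Per1, like Arntl, was lower in rat 47 on both sides (-0.83 and -0.47), and the others were higher. These are values of 2 rats, and the pair was chosen after its values were seen. The right library of rat 51 held 8336 CPM of skeletal muscle genes (9.001 CPM on the left), and the left library of rat 47 held 6489 CPM of red cell genes (206.9 CPM on the right), whose part was not tested.

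The other pairs of rats were less clear. On both sides, the same order was kept by 6 of 10 genes for rats 45 and 49 (64.4% of all genes), by 7 for 45 and 53 (65.3%), by 7 for 49 and 53 (49.1%), by 7 for 43 and 47 (62.4%), and by 8 for 43 and 51 (63.0%). Among SOD rats the log2 ratio of Dbp to Arntl ran only from -1.16 to -0.81 on the injured side and from -0.52 to -0.06 on the uninjured side. Side separated those 6 values and rat did not.

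**Figure D4:**
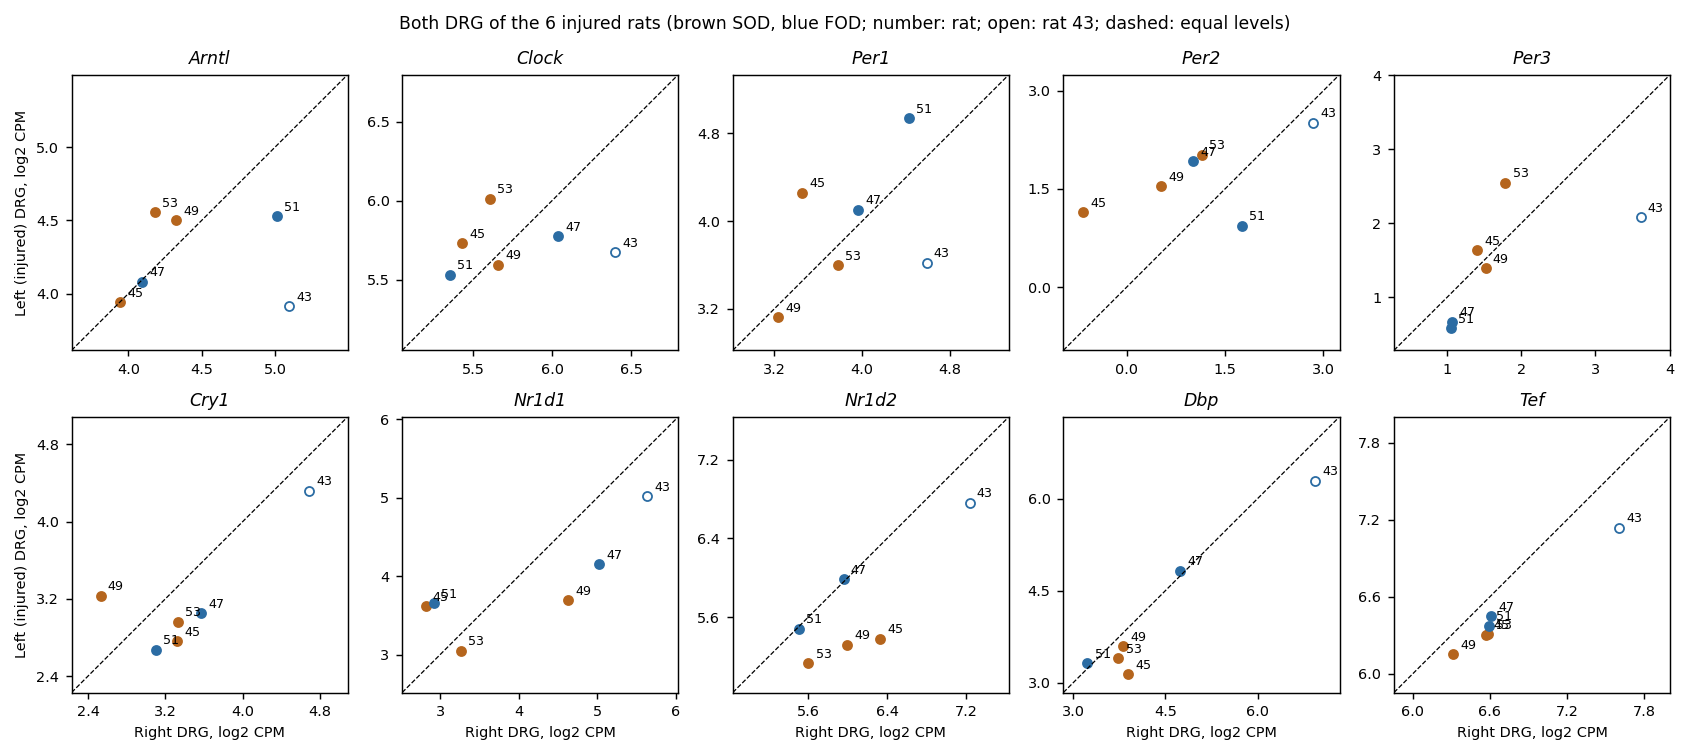
Log2 CPM of each clock gene in the left (vertical) and right (horizontal) DRG of the 6 injured rats, numbered, with a dashed line of equal levels. Dbp, Tef, and Nr1d2 follow the line with rat 43 at the top, and rats 47 and 51 lie far apart for Dbp (log2 CPM 4.82 and 3.31 on the left).

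Different rats with the same replicate number were compared over the 14 left DRG, since a number may mark animals handled together, which the labels do not say. None of the 10 was called (0% of genes). At an unadjusted p under 0.05 there were 4 of 10 (Nr1d1, Nr1d2, Tef, and Dbp, with adjusted p from 0.757 to 0.911) against 5.2% of all genes. Without the libraries with other tissue, all of which are replicate 1, there was 1 of 10 (Nr1d1, adjusted p = 0.992) against 2.19%. With DESeq2 and all libraries, Nr1d1, Nr1d2, and Tef passed the threshold, 3 of 10 against 1.6% of genes.

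The opposition of Arntl to the other genes was examined over the 14 left DRG as log2 CPM centred within groups, in 9 relations with 100000 permutations within groups. None passed after adjustment. Pearson's r with Arntl was 0.04 for Dbp (Spearman's rho -0.21; permutation p = 0.877 and 0.484; adjusted 0.915 and 0.622) and 0.06 for Nr1d1 (rho -0.24; permutation p = 0.876 and 0.460; adjusted 0.915 and 0.622). Without SOD-CT replicates 1 and 2, the libraries farthest from the median of Arntl, these r values were -0.38 and -0.41. Without replicate 1 alone, the library rich in muscle transcripts, they were -0.43 and -0.64. Without replicate 2 alone they were -0.02 and 0.10. In the 11 left libraries without other tissue, r was -0.64 for Nr1d1 (rho -0.75; permutation p = 0.044 and 0.012; adjusted 0.230 and 0.111) and -0.60 for Tef (rho -0.56; permutation p = 0.051 and 0.071; adjusted 0.230 and 0.322). Leaving out the 2 farthest of the 11, these were -0.59 and -0.58.

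Among themselves, Dbp, Tef, Nr1d1, and Nr1d2 were most alike in the 14 left libraries, given as a description. Pearson's r was 0.88 for Tef with Nr1d1, 0.85 for Dbp with Nr1d2, 0.85 for Nr1d1 with Nr1d2, and 0.83 for Dbp with Tef. Not all genes that the activator switches on were alike. Per1 was at 0.005 with Dbp and -0.27 with Nr1d1, and Cry1 was at 0.68 and 0.59. In the 11 libraries, Tef with Nr1d1 was at 0.77 and Dbp with Nr1d2 at 0.53, and Dbp with Tef was at -0.13. Per2 with Clock was then the highest, at 0.77. These libraries share the 3 with other tissue in the first set and the same scaling in both.

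**Figure D5:**
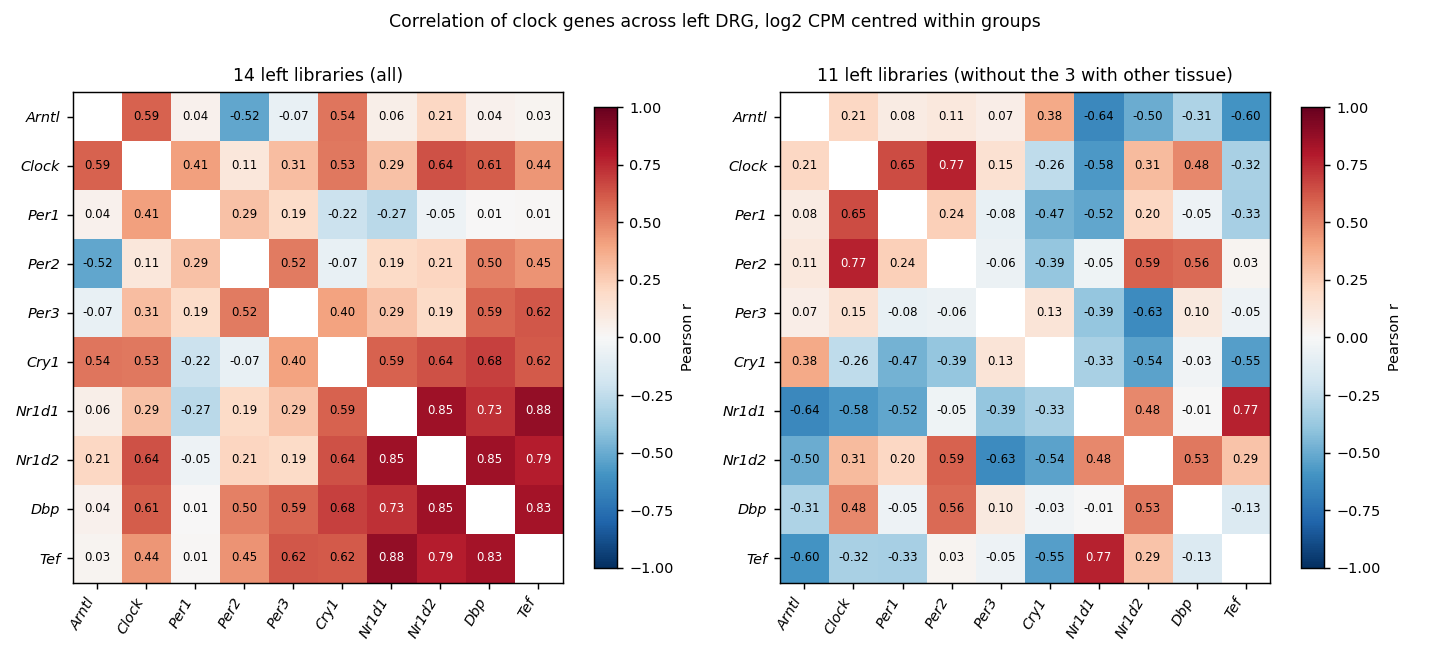
Pearson r between clock genes over left DRG (log2 CPM centred within groups), with 14 libraries on the left and the 11 without other tissue on the right, on a colour scale from -1 to 1. Dbp with Tef is at 0.83 on the left and at -0.13 on the right, and Arntl with Nr1d1 is at 0.06 and -0.64.

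Of 14483 genes ranked against Arntl over the 14 left libraries, the most alike were LOC108348289 (r = 0.94), Ppp2r3a (0.94), and Metap1d (0.94), and the most opposite were Prmt8 (-0.94), Vps33b (-0.94), and LOC365985 (-0.94). In the 11 libraries these were at 0.82, 0.80, 0.74, -0.81, -0.86, and -0.78. Against Dbp the most alike were Ntsr2 (0.93), S100a16 (0.92), and Gnl1 (0.92), at 0.56, 0.52, and 0.58 in the 11. Clock ranked 1639 in likeness to Arntl, its partner in the activator. Among the other members of the 10 clock genes, Nr1d2 (rank 69) and Tef (rank 105) were most like Dbp. In the 11 libraries these were at 0.53 and -0.13, while Per2 was at 0.56.

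A further 20 clock genes were listed, of which 15 passed the filter in left and in paired DRG and 14 in the contralateral and sham fit. None was called in any group comparison. In the test between rats 1 of 15 was called, Bhlhe40, a repressor at E-boxes, against 3.96% of all genes. Of 10 genes known to be induced by glucocorticoids, hormones with a daily rhythm, 0 were called in any comparison or between rats. Between rats, 2 of the 9 tested (Sgk1 and Sult1a1) had an unadjusted p under 0.05, against 15.9% of all genes. In FOD-CCI-contra against SOD-CCI-contra, 8 of 9 had fold changes above 0 (median log2 0.88), and 4 (Ddit4, Sgk1, Sult1a1, and Nfkbia) had an unadjusted p under 0.05, against 7.1% of genes. In SOD-CCI-contra against SOD-CT, 9 of 9 were below 0 (median -0.71), and 2 (Sgk1 and Sult1a1) had an unadjusted p under 0.05, against 7.06%. The fold changes of Per1 in those comparisons were 0.87 and -1.01, and the part of glucocorticoid response in them was not tested. The SOD-CCI-contra libraries enter both comparisons, and these list values are with all libraries. The 10 genes summed to 953 CPM in SOD-CT replicate 4, which also held muscle and red cell transcripts and where Per1 was at 40.5 CPM. In SOD-CT replicates 1 to 3 they summed to 327, 577, and 635 CPM. Their sums were 555, 458, and 481 CPM in SOD-CCI-contra. In FOD-CCI-contra they were 518 (replicate 1, with other tissue), 583, and 715 CPM.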

How the data were processed

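RNA of 20 DRG was made by the authors into poly-A libraries, trimmed with fastp, aligned with HISAT2, and counted per gene with featureCounts 1.5.0-p3. The deposited counts are whole, unscaled numbers. The deposited FPKM values, made by the authors from those counts and gene lengths, were used to order genes and as an alternative scale. Genome build and use of strand are not given in the sources used here, so reads of overlapping genes cannot be told apart. All columns were assigned from the labels (0 left over).

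Genes were kept if 90% or more of the libraries had 10 or more counts, and were tested by edgeR 4.0.16 (R 4.3.3, TMM, quasi-likelihood, two-sided) in 3 fits: left groups, contralateral and sham groups, and pairs with the rat as a block. Calls needed a fold of 1.2 or more and a p, adjusted over all genes by Benjamini-Hochberg, no higher than 0.1. Tests between rats and replicate numbers were F tests. DESeq2 1.42.0 and the other alternatives are given in the closing section. Log2 CPM used a prior count of 1. The replicates of a group are separate rats. The 2 sides of a rat deviated together in all 6 rats (correlation 0.13 to 0.42). FOD-CCI and FOD-CT libraries of one number (0.18 to 0.42), and FOD-CCI-contra and FOD-CT libraries (0.18 to 0.57), also did, while the labels name different rats for a number. The values of 0.42 and 0.57 were of replicate 1, where these libraries hold spinal cord transcripts. FOD-CCI-contra and SOD-CCI-contra libraries of one number did not deviate together (-0.15 to -0.09), and the other comparisons by number had values of both signs. Libraries, rather than counts, limit the precision, except that Per2 and Per3 also had low counts (as few as 8 and 16 in a library). Fold changes were named for the 2 clock genes of lowest p in a comparison, and others after their values were seen. The clock genes and lists were chosen with earlier results of these data known. Promoters came from RefSeq (GRCr8). Code was tested on simulated data with a smaller spread between libraries than in these data. That test therefore does not tell how many changes these fits would miss.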

Additional observations from a re-analysis of the deposited data

Results flagged for a closer look

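In SOD-CT, replicate 1 stood far above the other 3 libraries for Nr1d2 (83.9 CPM against 57.0 to 60.8 CPM) and for Cry1 (20.1 CPM against 8.43 to 10.3 CPM), by a gap of 85.7% and 83.6% of the range of the group. This is the library with 101396 CPM of skeletal muscle transcripts, whose part in these values was not tested. They were 2 of 20 tests for a sample far from its group (10 genes in the 2 groups of 4), of which chance marks about 1 in 20.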

How the results depend on the processing

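No clock gene was called in a group comparison under any alternative, except Nr1d2 in SOD-CCI left against contralateral DRG. Of the named fold changes, 4 values turned in direction: Per3 in FOD-CCI against FOD-CT to 0.40 without FOD-CT replicate 1 and to 0.017 without the 4 libraries with other tissue, Per2 there to 0.36 without FOD-CT replicate 1 (leaving out 1 rat, Per3 ranged from -1.55 to 0.40 and Per2 from -1.42 to 0.36), and Per2 in FOD-CT against SOD-CT to -0.12 without the 4 libraries. The causes were not tested.

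Counts of all genes called depended strongly on the setting. DESeq2 called 594 genes in SOD-CCI against SOD-CT, 21 in FOD-CCI against FOD-CT, 2 in FOD-CCI against SOD-CCI, 42 for the interaction, 52 in SOD-CCI-contra against SOD-CT, 58 in FOD-CCI-contra against SOD-CCI-contra, and 227 between replicate numbers (0 each in edgeR). It called 472 in SOD left against contralateral DRG (19 in edgeR), 264 in FOD pairs (2), and 2310 between rats (576), of which 6 were clock genes (6 of 10, against 16.9% of genes). Without the filter, edgeR called 220, 61, and 1288 genes in those 3 tests. Without the 4 libraries with other tissue it called 471, 137, and 5, and 200 in SOD-CCI against SOD-CT and 526 in FOD-CCI against FOD-CT. With the replicate number as a block, SOD-CCI against SOD-CT gave 1 call, and no other call of a comparison of groups changed under this block. Same-numbered SOD-CCI and SOD-CT libraries shared only a number (correlations 0.08, 0.08, and -0.06). Without the rat as a block, both left against contralateral comparisons gave 0 calls. Leaving out 1 rat, calls ranged from 0 to 47 (SOD-CCI against SOD-CT), 0 to 43 (FOD-CCI against FOD-CT), 0 to 471 (SOD pairs), 0 to 137 (FOD pairs), 5 to 587 (between rats), and 0 to 8 (replicate numbers). The upper values in both pairs and the lowest between rats came without rat 43. No relation with Arntl passed under any alternative.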
